A study of Mus musculus with 5 samples.

Results

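The 10 genes described here are regulators of multiciliated cell fate and of the amplification of centrioles, and they were listed by symbol: Foxj1, Mcidas, Gmnc, Ccno, Myb, Rfx2, Rfx3, Trp73, Deup1 and Cdc20b. Rows with these symbols were found for 9 of the 10 among 19699 gene entries. Deup1 had no row, so its level was not analysed, and only its promoter is used below. No level was required for a gene to count as a member. RNA was sequenced in bulk from the main airway section, trachea and lung, of C57 mouse embryos at E13.5. The mutants were 2 libraries in which Prmt5, which encodes an arginine methyltransferase of histones and splicing proteins, was, by the study's description, removed from the lung epithelium, and 3 WT libraries were the controls. The genotype given with each mutant sample is a Prmt5 knockdown, whereas the design and growth texts speak of an epithelial knockout. The design text also names Shh beside Prmt5 in the mutant genotype, without giving the allele or its driver, and calls the controls littermates. It is not stated if embryos were pooled, so the p-values below reflect library-to-library spread only, part of which may be technical.

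Multiciliated cells of the airway carry many motile cilia and clear mucus. In the known order of events, progenitors that escape Notch signalling switch on Gmnc and then Mcidas, relatives of the replication inhibitor geminin that act with the factors E2F4 and E2F5. These turn on Ccno, Deup1 and Cdc20b, which serve the production of many centrioles in a cell that no longer divides, and Myb, Trp73, Rfx2, Rfx3 and Foxj1, transcription factors that carry the program on to cilium genes. In the mouse trachea the first multiciliated cells appear in late gestation, after the stage sampled here.

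The libraries rested on 15652503 to 15756526 reads for mutant airways and 16305922 to 18682463 reads for control airways, recovered from the steps between the FPKM values (fragments scaled to gene length and library size). Prmt5 itself was at 23.7 and 20.1 FPKM in mutant airways, against 28.7, 26.4 and 25.8 FPKM in control airways. Both mutants lay below the 3 controls, by 18.7% on average, which did not pass (limma, adjusted p = 0.234). The lung lineage factor Nkx2-1 was present in every library, at 36.1 and 32.8 FPKM in mutant airways and 40.2, 43.1 and 20.4 FPKM in control airways. The libraries were unequal in epithelium: the summed FPKM of 25 pan-epithelial markers was 426 in both mutants, against 943 in control replicate 1, 502 in control replicate 2 and 372 in control replicate 3. Xist was at 0.0673 and 0.289 FPKM in mutant airways and at 57.3, 58.1 and 115 FPKM in control airways, so little RNA of the mutants and more of the controls came from females. The summed FPKM of the Y-linked genes Ddx3y, Eif2s3y, Kdm5d and Uty was 31.5 and 27.1 in the mutants. It was 23.0, 18.9 and 4.49 in the controls, so control replicates 1 and 2 held RNA of both sexes. The labels do not give sex, and its part in the results cannot be fully told apart from that of genotype. In a fit with male share as a covariate, the log2 change of Ccno was -1.98 (limma, adjusted p = 0.272).

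Among these regulators, the apical genes of the cascade were almost without reads in the mutants while the cilium factor Foxj1 was not. Gmnc had 0 and 1 reads in the mutants against 78, 20 and 14 in the controls, and Mcidas had 1 and 3 reads in the mutants against 84, 19 and 32 in the controls. Ccno and Myb were lower by 76.7% and 65.2%, and Rfx3 and Rfx2 by 31.6% and 17.3%. Foxj1 overlapped between the groups, and Trp73 was very low in all libraries. Of the 9 members, 8 had at least 10 reads over the 5 libraries, and both mutants lay below all controls for 6 of these 8. The same held for 24.1% of all genes with at least 10 reads, for 24.4% of genes past the filter described next and for 22.4% of those under it. Gmnc and Mcidas reached 10 reads through their controls alone, so nothing is read from that count of members. Groups that did not overlap in either direction made up 37.6% of genes past the filter. No member passed the test across all genes, which called 2.36% of 12838 genes at an adjusted p of 0.05, 1.37% as lower in mutants (limma on log2(FPKM + 1)). Genes were tested where at least 2 libraries reached 1 FPKM, which left 4 members, and 3 of these 4 were lower with an unadjusted p under 0.05, beside 12.3% of all genes tested. One of the 3, Myb, passed the filter through its controls alone, so nothing is read from that count. With voom on the recovered reads, 0 of 8 members passed and 5 had an unadjusted p under 0.05, where voom called 4.09% of 16452 genes and 12.6% were lower with such an unadjusted p. Gmnc and Mcidas are among those 5 members, so nothing is read from the voom count. In an exact permutation test no single gene could reach 0.05, since the 10 splits of 2 against 3 libraries allow a permutation p of 0.1 at best. This limit does not hold for limma or voom.

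Gmnc (chromosome 16, 26913553 to 26991652, minus strand, GRCm38) encodes the coiled-coil protein GEMC1, the earliest known switch to the multiciliated fate. Its level was 0 and 0.0156 FPKM in mutant airways, against 1.02, 0.300 and 0.188 FPKM in control airways. The 1 mutant read against 112 control reads was a 66.1-fold lower rate, with an exact 95% interval of 11.6 to 2634 that covers counting error only. The groups did not overlap, but the controls themselves spanned a wide range, with control replicate 1 far above the other two. The ratio of mean levels, 64.4 with all libraries, was 31.2 without that replicate and 32.2 without mutant replicate 1. Without mutant replicate 2 no read is left in the mutants. Gmnc lay under the filter of the main test, and its log2 change by voom was -4.89 (SE 1.46, adjusted p = 0.0940).

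Mcidas (chromosome 13, 112993845 to 113000394, plus strand) encodes multicilin, which acts just downstream of GEMC1. It was at 0.0270 and 0.0814 FPKM in mutant airways and at 1.91, 0.495 and 0.746 FPKM in control airways. The highest mutant stood well below the lowest control, on 4 mutant reads against 135 control reads. The rate was 19.9-fold lower in the mutants, with a counting interval of 7.60 to 74.2. Leaving out control replicate 1, again the highest, the ratio of mean levels was 11.5 in place of 19.4, and it was 12.9 without mutant replicate 1 and 39.0 without mutant replicate 2. By voom the log2 change was -3.90 (SE 1.10, adjusted p = 0.0792).

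Ccno (chromosome 13, 112987802 to 112990777, plus strand) encodes cyclin O, which is needed for centriole amplification in multiciliated cells and whose human mutation leaves airways with few cilia. It had the highest median of the members in the controls. Its level was 0.981 and 1.57 FPKM in mutant airways, against 9.27, 3.27 and 3.83 FPKM in control airways, from 75 mutant reads against 556 control reads. Both mutants were below the lowest control by more than the spread of the mutants themselves. Ccno averaged 1.27 ± 0.414 FPKM in mutant airways (SD, n = 2) and 5.46 ± 3.32 FPKM in control airways (SD, n = 3). The log2 change of -1.40 (SE 0.36) came closest to the threshold of all members tested, with limma's adjusted p = 0.0925. The mean control level was 4.29 times the mutant level, and 2.79 times without control replicate 1. Whether Ccno passed depended on that library: without it the log2 change was -1.01 (SE 0.19) and limma's adjusted p = 0.0492, in a fit that called 2.44% of 12633 genes.

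Cdc20b (chromosome 13, 113035111 to 113091195, plus strand) encodes a relative of the mitotic activator CDC20 that takes part in deuterosome function. It had 0 reads in both mutants, and 3, 0 and 5 reads in the controls. The groups overlapped, since control replicate 2 was also at 0. An intron of Cdc20b hosts the miR-449 family, microRNAs that in mouse and frog hold back Notch signalling and promote multiciliated cells. The mature 5′ strands held in the RefSeq table (GRCm38.p6) are shown because they carry the same seed, bases 2 to 8, in capitals.
mmu-miR-449a-5p: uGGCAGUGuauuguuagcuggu
mmu-miR-449c-5p: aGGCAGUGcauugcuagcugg
The Mir449a entry had 1 read, in mutant replicate 1, and 0 in the other 4 libraries, and mRNA libraries of this kind do not measure mature microRNAs.

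**Figure D1:**
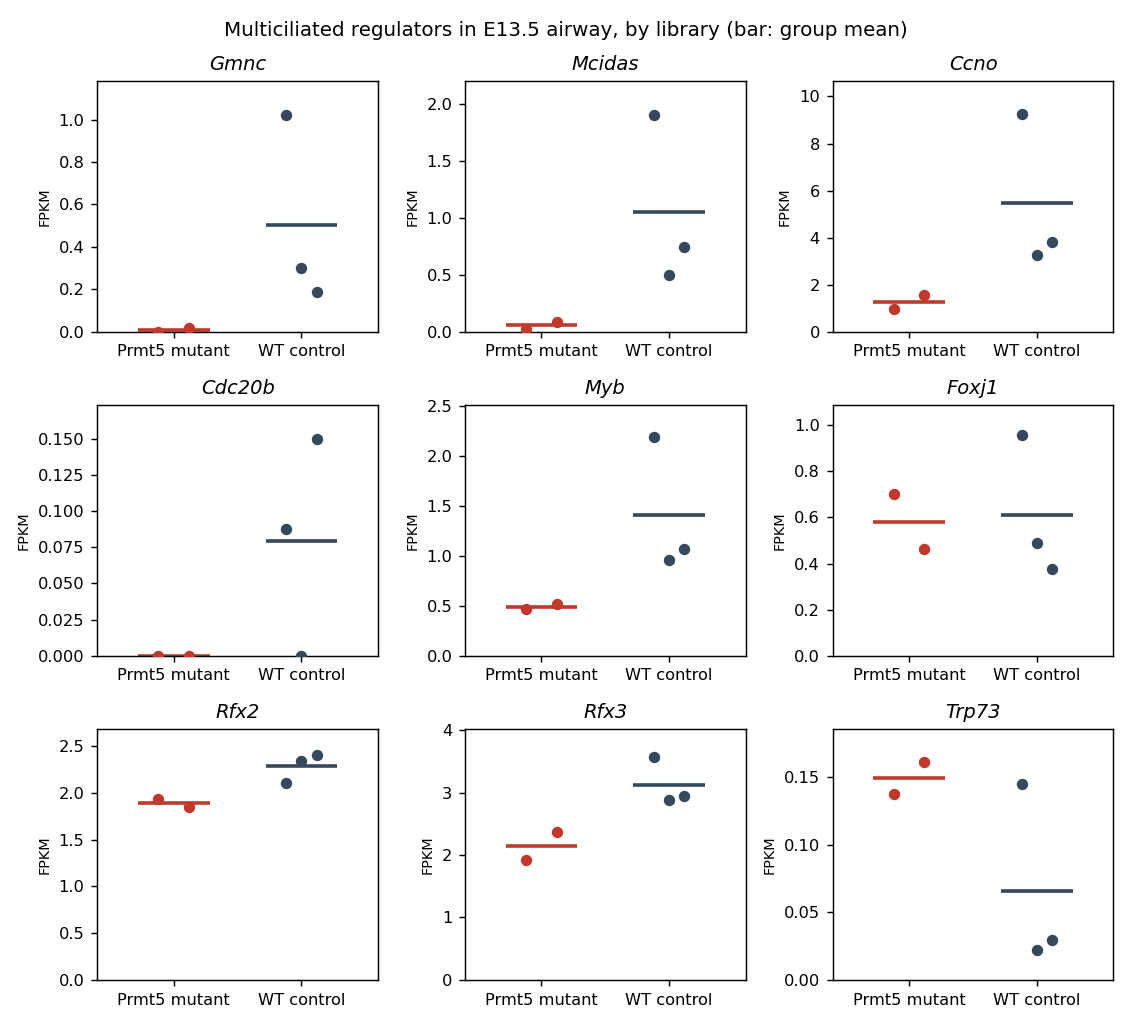
FPKM (vertical axis, from 0, a separate scale for each gene) of the 9 members in 2 Prmt5 mutant (red, left) and 3 WT control (dark, right) libraries. Points are libraries and bars are group means. Gmnc, Mcidas, Ccno, Myb, Rfx2 and Rfx3 have both mutants below all controls, while Foxj1, Trp73 and Cdc20b overlap.

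Ccno, Mcidas and Cdc20b lie side by side on the plus strand of chromosome 13. The end of Ccno and the start of Mcidas are 3067 bases apart, and 34716 bases separate Mcidas from Cdc20b. The neighbours listed within 200 kb of the trio gave no call where they were tested. Dhx29, an RNA helicase gene upstream of Ccno, was at 12.1 and 11.8 FPKM in mutant airways and 17.1, 12.8 and 12.8 FPKM in control airways. Plpp1, a lipid phosphatase gene beyond it, overlapped between the groups. Gpx8, a peroxidase gene that lies inside Cdc20b on the other strand, was slightly higher in the mutants, at 116 and 118 FPKM in mutant airways against 109, 106 and 104 FPKM in control airways. The adjusted p was above the threshold for each (limma, adjusted p = 0.548 for Plpp1, 0.479 for Dhx29 and 0.525 for Gpx8). Esm1, an endothelial gene, Gm10735 and Gzma lay under the filter and overlapped between the groups. No source used here says whether counting was by strand. Gpx8 had 1754 to 2073 reads in a library where Cdc20b had 0 to 5.

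**Figure D2:**
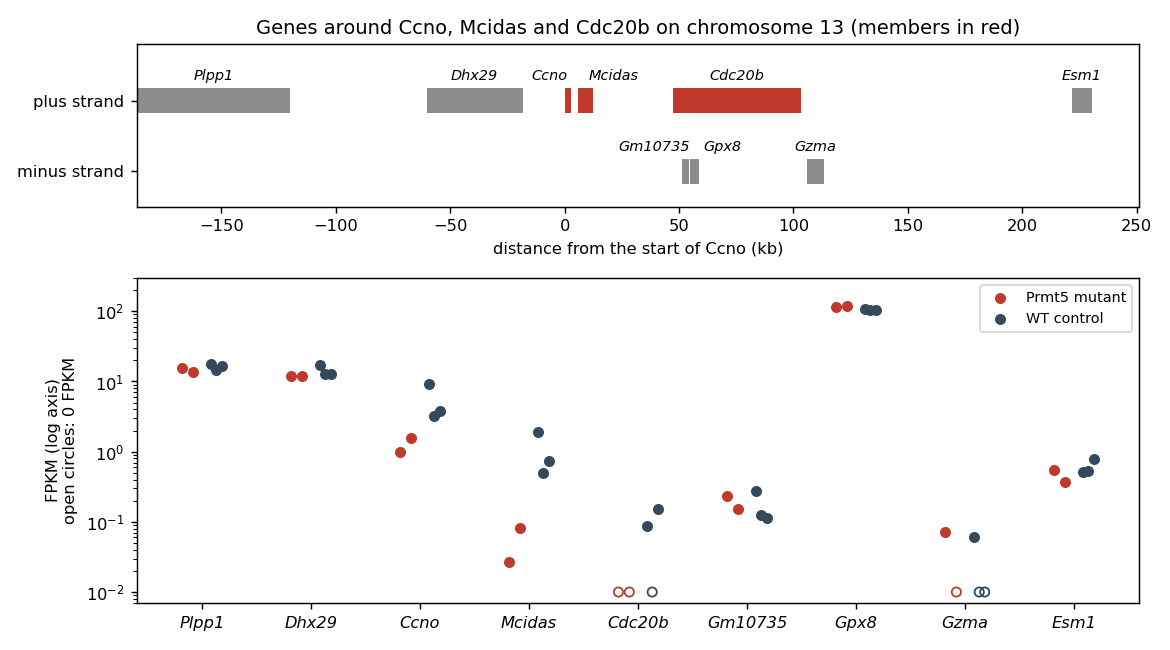
Top: genes around Ccno by distance from its start in kb (horizontal axis) and strand, members in red. Bottom: FPKM on a log axis in 2 Prmt5 mutant (red, left) and 3 WT control (dark, right) libraries, with open circles for 0 FPKM. Ccno and Mcidas show both mutants below all controls, at the nearest 1.57 against 3.27 FPKM and 0.0814 against 0.495 FPKM, while Gpx8 is near 100 FPKM in all libraries.

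The 250 bases before the RefSeq starts of Ccno, Mcidas and Gmnc are shown because these genes had the largest ratios. Matches to an RFX site are in capitals, and the RFX proteins of the list bind such sites. They are written 5′ to 3′ on the strand of the gene (GRCm38.p6).
Ccno, chr13:112987552-112987801, plus: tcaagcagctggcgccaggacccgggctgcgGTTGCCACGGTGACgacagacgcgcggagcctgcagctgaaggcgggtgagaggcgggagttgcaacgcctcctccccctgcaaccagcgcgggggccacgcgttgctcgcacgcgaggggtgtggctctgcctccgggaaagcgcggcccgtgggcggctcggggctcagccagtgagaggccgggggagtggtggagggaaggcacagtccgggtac
Mcidas, chr13:112993618-112993867, plus: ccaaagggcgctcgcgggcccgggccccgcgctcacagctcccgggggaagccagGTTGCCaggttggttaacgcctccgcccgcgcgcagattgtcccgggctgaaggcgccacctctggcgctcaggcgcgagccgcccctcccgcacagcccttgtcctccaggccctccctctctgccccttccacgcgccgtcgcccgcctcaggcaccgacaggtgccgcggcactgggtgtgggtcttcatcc
Gmnc, chr16:26991653-26991902, minus: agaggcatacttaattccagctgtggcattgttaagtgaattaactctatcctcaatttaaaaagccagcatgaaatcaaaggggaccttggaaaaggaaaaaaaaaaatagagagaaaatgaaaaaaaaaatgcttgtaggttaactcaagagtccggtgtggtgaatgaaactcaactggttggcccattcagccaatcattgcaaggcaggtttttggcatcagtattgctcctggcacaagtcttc
The X-box searched was GTTNCC, then NN, then GGNNAC, and the shorter site was GTTGCC, on both strands. An X-box match can contain the shorter site. The window of Ccno holds an X-box 219 to 206 bases before the start. Such a match is in 1.06% of 32851 RefSeq promoter windows of this length, and among the 9 members with a window it is in those of Ccno and Deup1. These 9 include Deup1 and leave out Foxj1, which had no window and was not searched for any site. Mcidas holds the shorter site without an X-box, as does Rfx2, and 10.4% of all windows hold it. No match to either is in the window of Gmnc shown. The forkhead site TGTTTAC, in 3.17% of all windows, is in none of the members' windows. The E2F site GGCGGGAA, in 1.86% of windows, is found before 1 member, Trp73, and the MYB site TAACNG, in 19.8%, before Rfx2 and Deup1. Whether any factor binds these sites was not measured.

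Myb (chromosome 10, 21124935 to 21160984, minus strand) encodes a transcription factor of progenitors that in the airway acts early in multiciliated differentiation, and it is also a gene of blood progenitors. It was at 0.465 and 0.515 FPKM in mutant airways and at 2.20, 0.959 and 1.07 FPKM in control airways. The mutants were close to each other and below the lowest control. The log2 change was -0.66 (SE 0.25) and limma's adjusted p = 0.217, and Myb passed the filter through its controls alone. The mean control level was 2.88 times the mutant level, and 2.07 times without control replicate 1. Of 15 tested markers of blood progenitors and red cells 0 passed with limma and 2 had an unadjusted p under 0.05, Hbb-y with a log2 change of 0.58 and Alas2 with -0.71. Their median log2 change was -0.0018, and their summed FPKM was 4276 and 5284 in the mutants and 3641 to 5425 in the controls. Ptprc, which marks white blood cells, was at 0.163 and 0.227 FPKM in mutant airways and 0.181, 0.177 and 0.252 FPKM in control airways, and overlapped. The part of blood cells in the level of Myb was not tested.

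Foxj1 (chromosome 11, 116330704 to 116335399, minus strand) encodes the factor that drives motile cilium genes. Its level was 0.702 and 0.463 FPKM in mutant airways and 0.959, 0.491 and 0.377 FPKM in control airways. One mutant lay above control replicates 2 and 3 and the other between them, so the groups overlapped. There were 48 mutant reads against 86 control reads, a rate in the mutants of 0.946 times the control rate with a counting interval of 0.650 to 1.36. Foxj1 was under the filter, and by voom its log2 change was 0.01 (SE 0.50, adjusted p = 0.994).

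Rfx3 and Rfx2 encode factors that bind X-boxes before cilium genes, in cells with motile cilia and in cells with a single primary cilium. Rfx3 (chromosome 19, 27761721 to 28011166, minus strand) was at 1.92 and 2.36 FPKM in mutant airways, against 3.57, 2.88 and 2.94 FPKM in control airways. The groups did not overlap, and 741 mutant and 1844 control reads lay behind the values of Rfx3. Its log2 change was -0.39 (SE 0.15) with limma's adjusted p = 0.220. Rfx2 (chromosome 17, 56775897 to 56831013, minus strand) was at 1.93 and 1.85 FPKM in mutant airways and at 2.11, 2.34 and 2.41 FPKM in control airways. That gap was the smallest of the 4 members tested, at a log2 change of -0.18 (SE 0.14, limma's adjusted p = 0.553).

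Trp73 (chromosome 4, 154056253 to 154140208, minus strand) encodes p73, a relative of p53 that acts upstream of Foxj1 in multiciliated cells. It was at 0.138 and 0.162 FPKM in mutant airways and at 0.145, 0.0222 and 0.0298 FPKM in control airways. Control replicate 1 lay between the mutants and the other 2 controls were lower, so the groups overlapped. The 26 mutant reads against 20 control reads gave a rate 2.20 times that of the controls, with a counting interval of 1.18 to 4.16. Without control replicate 1 the mean control level was 0.173 times that of the mutants, in place of 0.439. By voom the log2 change was 1.53 (SE 0.73, adjusted p = 0.297).

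By their median in the controls, the levels ran from Ccno at 3.83 FPKM through Rfx3 (2.94), Rfx2 (2.34), Myb (1.07), Mcidas (0.746), Foxj1 (0.491), Gmnc (0.300) and Cdc20b (0.0878) to Trp73 at 0.0298 FPKM. Neighbours in this order overlapped in their control values, except Rfx3 and Rfx2, and Gmnc and Cdc20b. By the mutant median the order began with Rfx3 (2.14), Rfx2 (1.89) and Ccno (1.27), followed by Foxj1 (0.582) and Myb (0.490). By these medians Foxj1 stood above Mcidas and Myb in the mutants and below both in the controls, but the mutant values of Foxj1 and Myb overlapped.

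Control replicate 1 was the highest control for 7 of the 9 members, and it was also the library richest in epithelial RNA. In whole tissue, fewer cells of a type and less RNA per cell cannot be told apart. Each member was therefore also set against the summed FPKM of the 25 pan-epithelial markers of its library. Per 1000 FPKM of these markers, Mcidas was at 0.0633 and 0.191 in the mutants and at 2.03, 0.986 and 2.00 in the controls. Gmnc was at 0 and 0.0368 in the mutants on this scale, against 1.08, 0.598 and 0.505 in the controls. The groups of both still did not overlap, and the mean control ratios were 13.1 and 39.7 times those of the mutants. Ccno stood at 2.30 and 3.68 in the mutants, against 9.83, 6.51 and 10.3 in the controls, and Myb at 1.09 and 1.21 in the mutants against 2.33, 1.91 and 2.88 in the controls. For Rfx3 and Rfx2 the groups overlapped on this scale. Foxj1, at 1.65 and 1.09 in the mutants and 1.02, 0.978 and 1.01 in the controls, had both mutants above the controls, as did Trp73. Both are limited by depth: Foxj1 had 19 reads in mutant replicate 2, and Trp73 had 2 and 3 reads in control replicates 2 and 3. On this scale both mutants lay below all controls for 4 of the 8 members with at least 10 reads, beside 4.38% of all genes with as many reads. They lay above all controls for 2 of the 8, beside 13.1%. Gmnc and Mcidas, among the 4, reached 10 reads through their controls alone, so nothing is read from these counts. The exact permutation p was 0.1 to 0.2 for the 4 genes with mutants below, and 0.1 for Foxj1 and Trp73, where 0.1 is the smallest possible.

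**Figure D3:**
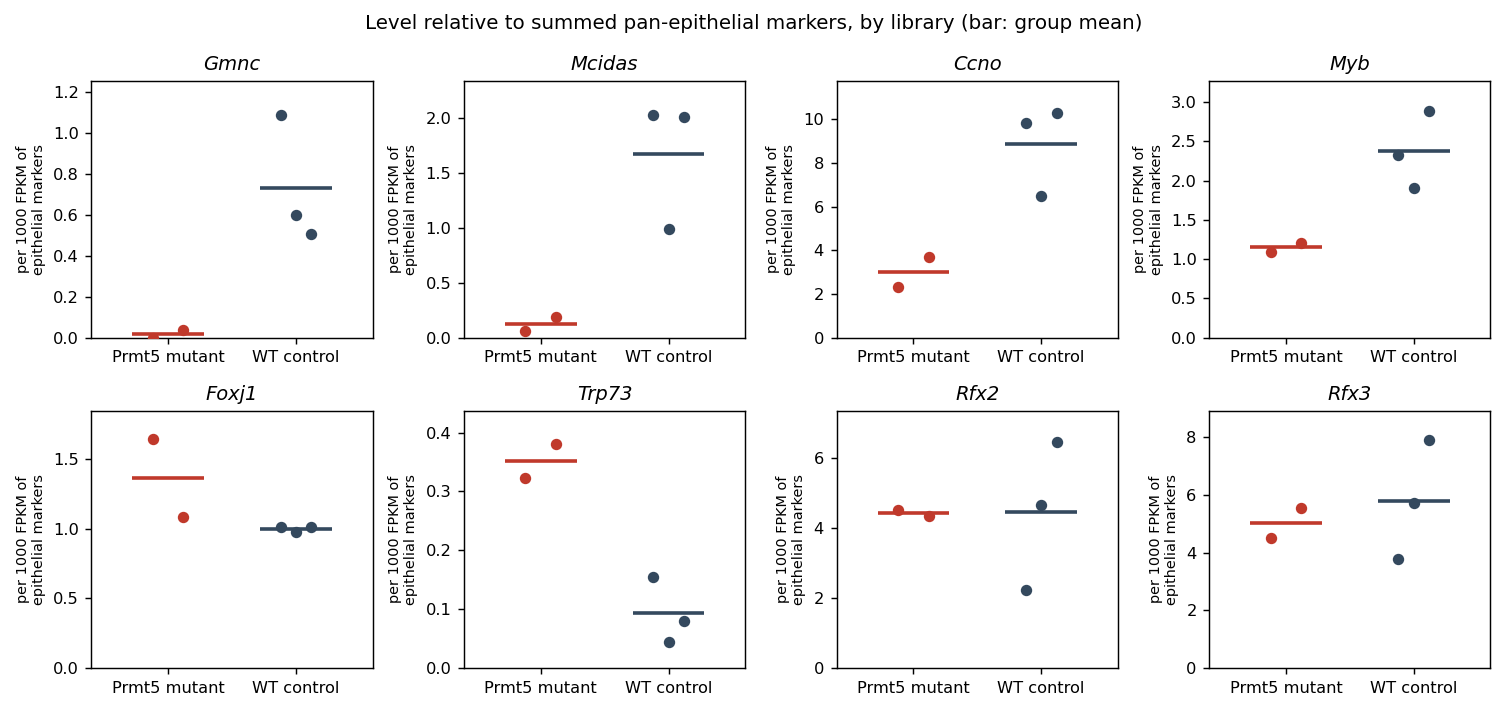
FPKM of 8 members per 1000 FPKM of summed pan-epithelial markers in the same library (vertical axis, from 0), in 2 Prmt5 mutant (red, left) and 3 WT control (dark, right) libraries, with bars for group means. Gmnc, Mcidas, Ccno and Myb keep both mutants below all controls, Foxj1 and Trp73 have both mutants above them, and Rfx2 and Rfx3 overlap. Among all genes with at least 10 reads, 4.38% had both mutants below and 13.1% had both above on this scale. Gmnc and Mcidas reached 10 reads through their controls alone, and Foxj1 and Trp73 are limited by depth.

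The pan-epithelial markers differed among themselves: of 24 tested, 17 had a negative sign and 0 were lower past the threshold with limma, where 7 had an unadjusted p under 0.05 in either direction. Their median log2 change was -0.34 beside -0.06 for all genes tested. Epcam, an adhesion gene of all epithelia, was at 38.2 and 40.2 FPKM in mutant airways and 124, 66.5 and 51.4 FPKM in control airways. Sox2, the factor of the conducting airway from which multiciliated cells arise, was at 4.10 and 2.76 FPKM in mutant airways and 44.3, 16.6 and 26.9 FPKM in control airways (log2 change -2.68, limma's adjusted p = 0.0163). Secretory cells share that origin, and of 6 of their markers tested 2 were lower and 0 higher past the threshold, with a median log2 change of -2.21. The 2 were Aldh1a7 and the mucin gene Muc1, at log2 changes of -2.39 and -1.66. Muc1, Cyp2f2, Hp and Lypd2 passed the filter through their controls alone, so nothing is read from the count or the median of these markers. The summed FPKM of the secretory markers was 13.8 and 21.0 in the mutants and 76.8 to 206 in the controls. The part of these conducting airway differences in the low levels of Gmnc, Mcidas and Ccno was not tested.

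Of 64 structural and assembly genes of the motile cilium found, 47 lay under the filter. Others were well above it, such as Gas8, a dynein regulator gene, at 18.9 and 15.6 FPKM in mutant airways and 22.3, 15.4 and 18.1 FPKM in control airways. Of 17 tested, 2 were lower and 0 higher past the threshold, with a median log2 change of -0.10. Of all genes tested 1.37% were called lower, with a median of -0.06. Dnaaf2, among the 17, passed the filter through its controls alone, so nothing is read from the count or the median. Tekt2, which encodes a tektin of the axoneme, was at 1.90 and 1.61 FPKM in mutant airways and at 3.32, 4.04 and 4.13 FPKM in control airways (log2 change -0.81, SE 0.15, limma's adjusted p = 0.0419). Tppp3, a tubulin polymerization gene, was at 6.53 and 5.98 FPKM in mutant airways and at 13.4, 11.3 and 9.86 FPKM in control airways (log2 change -0.78, SE 0.14, limma's adjusted p = 0.0421). Capsl and Spef1 had log2 changes of -1.17 and -0.41 and did not pass (limma's adjusted p = 0.0877 and 0.252).

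Centriole assembly genes, most of which dividing cells use too, gave no call. Of 31 tested, 0 passed and 0 had an unadjusted p under 0.05 with limma, and the median log2 change was -0.03, with 16 lower and 15 higher in sign. The 4 with the smallest p were Sass6, which encodes a cartwheel protein, Kif24, Cep152 and Poc1a, at log2 changes of -0.26, -0.28, 0.30 and -0.19. Plk4, the kinase that starts centriole formation, averaged 10.1 ± 0.264 FPKM in mutant airways (SD, n = 2) and 9.75 ± 0.781 FPKM in control airways (SD, n = 3).

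Partners and upstream regulators of the cascade gave 3 lower and 0 higher of 35 tested, with a median log2 change of -0.12. Of all genes tested 1.37% were called lower, and their median was -0.06. The 3 were Sox2, its relative Sox21 and the Notch target Hey1, and the next by p was Jazf1. Sox21 was at 0.518 and 0.319 FPKM in mutant airways and at 5.13, 2.68 and 3.25 FPKM in control airways (log2 change -1.69, limma's adjusted p = 0.0181). It passed the filter on low values through its controls alone, as did Trp63 and Ccna1. Nothing is therefore read from the count or the median of this list. Hey1 was at 5.03 and 4.36 FPKM in mutant airways and at 10.0, 9.11 and 11.4 FPKM in control airways (log2 change -0.97, limma's adjusted p = 0.0175). Jazf1 had a log2 change of -0.69 (limma's adjusted p = 0.0570). The E2F partners of GEMC1 and multicilin were abundant in both groups: E2f4 averaged 34.9 FPKM in mutant airways and 37.1 FPKM in control airways, and E2f5 averaged 12.2 FPKM in mutant airways and 15.3 FPKM in control airways (limma's adjusted p = 0.796 and 0.239).

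Markers of other cells in the tissue were read the same way. Of 10 macrophage markers 0 passed with limma and 1 had an unadjusted p under 0.05, all 10 were higher in sign, and the median log2 change was 0.28. Of 11 neuron markers 3 were lower past the threshold, Ret, Dbh and Tubb3, all 11 were lower in sign, and the median was -0.73. Over all 12838 genes tested, 1.37% were called lower, 7850 were lower in sign and the median was -0.06. Snap25 and Th passed the filter through their controls alone, so nothing is read from the count, signs or median of the neuron markers. The summed FPKM of the neuron markers was 54.8 and 42.0 in the mutants and 73.7 to 104 in the controls. Rfx3 is also a gene of neurons, and the part of neurons in its lower mutant level was not tested.

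**Figure D4:**
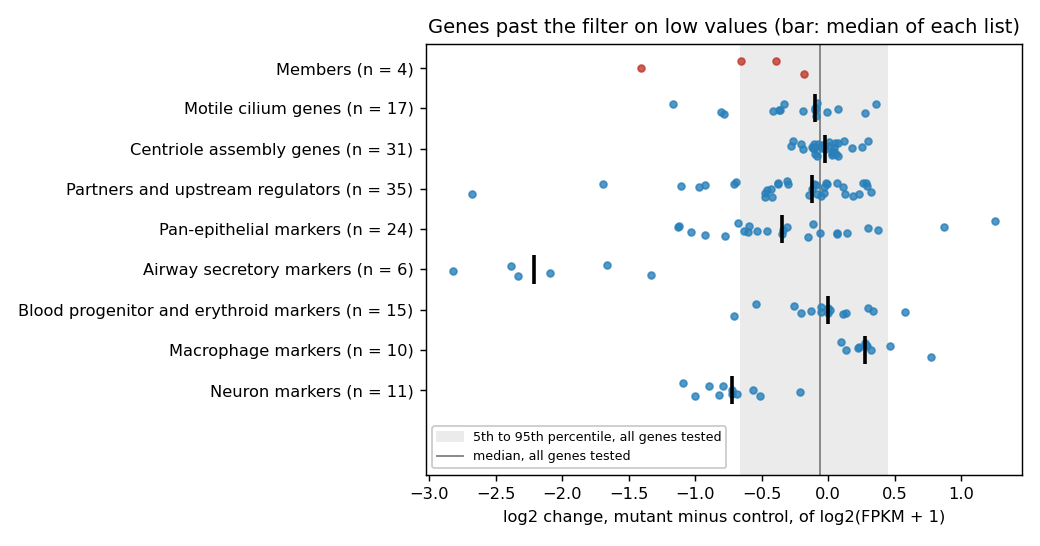
Log2 change, mutant minus control, of log2(FPKM + 1) (horizontal axis) for the 4 members past the filter (red) and the genes of 8 lists past it (blue), with a black bar at the median of each list. The grey band spans the 5th to 95th percentile of all 12838 genes tested, -0.66 to 0.44, and the grey line is their median of -0.06. Ccno lies left of the band, as do 6 of 6 airway secretory markers. Of these markers, Cyp2f2, Muc1, Hp and Lypd2 passed the filter through their controls alone. So did Myb among the members, and Dnaaf2, Sox21, Trp63, Ccna1, Snap25 and Th in other lists.

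The genes whose profile over the 5 libraries was most like that of Ccno were Dmrt3, S100a6, Cftr, Rassf9 and Tacr1, by the root mean square difference of centred log2(FPKM + 1) values, 0.0729 to 0.137 among 12836 genes. Dmrt3, a DM-domain transcription factor gene, was at 0.425 and 0.695 FPKM in mutant airways and at 6.09, 1.95 and 2.71 FPKM in control airways. Cftr, the chloride channel gene of airway epithelium, was at 0.638 and 0.872 FPKM in mutant airways and at 8.02, 2.82 and 2.81 FPKM in control airways. All 5 had control replicate 1 as their highest library, as Ccno had, which follows from how they were picked. Dmrt3, Cftr and Tacr1 passed the filter through their controls alone. Ccno was the only member tested whose profile varied enough for this comparison, with an SD over libraries of 0.918 against a minimum of 0.5.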

How the data were processed

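Bulk RNA was sequenced from 2 mutant and 3 control libraries at E13.5, grouped by their titles. The authors deposited 1 table of FPKM values, a unit taken from its name, and the submitters' processing notes name GRCm38 (mm10). For the aligner, counter, annotation, filters and strand, each is not given in the sources used here. Every entry gave whole reads in all 5 libraries (tolerance 1e-07) at one length per gene, which equalled the exon length in GENCODE M21 for 13961 of 19699 entries. For the others, Gmnc, Mcidas, Ccno, Myb and Rfx2 included, the smallest length that gives whole reads was used, so their true read counts could be a whole multiple of those printed. Gene positions are from the same annotation.

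The main test was limma 3.58.1 in R 4.3.3 (linear model with a trended prior variance, two-sided test) on log2(FPKM + 1), a scale that understates changes of low genes. Genes with at least 1 FPKM in at least 2 libraries were tested, with Benjamini-Hochberg adjustment over all of them and a threshold of 0.05. Voom used genes with at least 10 reads. The fit was tested on simulated data. Replicate numbers are not stated to pair the libraries, and deviations of same-numbered libraries correlated at -0.0671 and 0.0203 over 12838 genes. With 2 mutants their deviations mirror each other, so this check cannot decide whether libraries were paired. Intervals cover counting error only. The rule for names took all members, the 4 genes of each list with the smallest p and the 5 genes most like a member that varied (SD of at least 0.5); genes named by their role, such as E2f4, Plk4, Gas8 and Ptprc, were picked outside it. One result that the rule covers is not reported here. Genes around Ccno and relatives of the members were added after their values were seen. Members and lists were chosen with earlier results of these data known.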

Additional observations from a re-analysis of the deposited data

How the results depend on the processing

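Over all genes, the count past the threshold was 303 and became 69 with no filter on low values, 171 with a filter at 0.1 FPKM, 673 with voom on the recovered reads and 3 once male share, estimated per library, entered as a covariate. The calls were 127 higher and 176 lower in mutants, against 151 and 140 after median ratio scaling and 133 and 117 after quantile normalization. Leaving out 1 library gave 12 to 308, with 21 without mutant replicate 1 and 12 without mutant replicate 2, where the lone mutant is assumed to vary like the controls. The cause of the other shifts was not tested. The replicate number as a block gave 259 calls, and the numbers are not stated to pair the libraries. Of the members 0 passed, and leaving out 1 library gave 0 to 1, the 1 being Ccno without control replicate 1. Over 13 alternatives Ccno had log2 changes of -1.98 to -1.01 and limma's adjusted p of 0.0492 to 0.367. In the refitted tests Myb, Rfx3 and Rfx2 kept a negative sign, at adjusted p of 0.123 to 0.613, 0.104 to 0.832 and 0.503 to 0.998. Gmnc and Mcidas, tested in 3 alternatives, ranged from 0.0940 to 0.392 and from 0.0792 to 0.270. Dividing each library by its epithelial markers moved Rfx2 to 0.06 and Rfx3 to -0.12 on the log2 scale. Members under 150 reads in all, Foxj1, Mcidas, Gmnc, Trp73 and Cdc20b, are limited by depth.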

Other observations

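Relatives of the members, taken as whole families after the members' values were seen, differed from them in several cases. In the MYB family, Mybl1, which encodes a factor best known from germ cells, was higher in the mutants, at 3.14 and 3.03 FPKM in mutant airways against 1.46, 1.71 and 2.00 FPKM in control airways, but did not pass (log2 change 0.59, SE 0.15, limma's adjusted p = 0.0967). Mybl2, a gene of dividing cells, overlapped between the groups. The groups of Myb and Mybl1 thus did not overlap and stood in opposite order, and the difference between the genes was not tested. Geminin itself, the inhibitor of the replication factor CDT1, is encoded by Gmnn and averaged 25.8 ± 1.07 FPKM in mutant airways (SD, n = 2) and 21.1 ± 3.18 FPKM in control airways (SD, n = 3, limma's adjusted p = 0.326).

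In the RFX family, Rfx6, which encodes a factor of pancreas and gut endoderm, was at 0.524 and 0.416 FPKM in mutant airways and at 0.134, 0.108 and 0.110 FPKM in control airways, on 59 reads in the mutants. It lay under the filter and was not tested, and both mutants were above all controls, as for 11.1% of genes under the filter with at least 10 reads. Rfx1, Rfx5 and Rfx7 overlapped between the groups. In the p53 family, Trp53 itself had both mutants above all controls, at 55.7 and 45.8 FPKM in mutant airways against 35.5, 45.5 and 40.1 FPKM in control airways, and did not pass (limma's adjusted p = 0.277). Trp63, which marks basal cells, had both mutants below all controls, at 0.991 and 0.967 FPKM in mutant airways against 4.91, 1.24 and 1.55 FPKM in control airways, and did not pass (limma's adjusted p = 0.386). The level set by the filter was reached for Trp63 in controls alone.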
